A study of Homo sapiens with 12 samples.

Results

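The 10 genes described here encode heat shock chaperones of the cytosol and of mitochondria, together with the transcription factor that drives them. They were taken by symbol from a table of 44659 genes: HSF1, HSP90AA1, HSP90AB1, HSPA8, HSPH1, DNAJB1, DNAJA1, HSPB1, HSPD1 and HSPE1. RNA-seq was performed on A375 cells, an established human melanoma line with mutated BRAF, in 4 groups of 3 libraries after 24 h of culture. MAPKi cells received 500 nM vemurafenib, a BRAF inhibitor, with 500 nM cobimetinib, a MEK inhibitor, and were compared with cells given DMSO, both in medium with 2 mM glutamine. Gln-depleted cells were kept in glutamine-free medium and were compared with cells in CTRL medium, which holds 2 mM glutamine, and neither of these groups received a drug. The sample labels describe the RNA as cytoplasmic and the RNA-seq methods as total, after depletion of ribosomal RNA. The MAPKi and DMSO libraries were one sequencing batch and the CTRL and Gln-depleted libraries another, in which replicate 1 of both groups came from experimental batch 1 and replicates 2 and 3 from experimental batch 2. All groups are 1 cell line, so the values describe A375 cells and p-values measure the spread between these libraries.

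Chaperones bind unfolded proteins and let them fold, and cells need them at all times as well as under heat or other protein damage. HSP90 takes up clients that are nearly folded, many of them kinases and steroid receptors, and receives them from HSP70, which is recruited to unfolded chains by J-domain proteins and reset by nucleotide exchange factors such as HSP110. The chaperonin HSP60 with its lid HSP10 folds proteins in the mitochondrial matrix, small heat shock proteins hold aggregating proteins without ATP, and HSF1 switches on many of these genes by binding repeats of the unit nGAAn, the heat shock element.

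RefSeq promoter windows (GRCh38.p14, 250 bases before to 50 after a transcription start) were listed for 9 of the 10 genes, with 15 starts in all, and HSF1 was not among them. They were searched for GAANNTTCNNGAA or its reverse complement TTCNNGAANNTTC, a heat shock element of 3 alternating units, and for its parts GAANNTTC and TTCNNGAA, each of which is its own reverse complement and lies within the longer letters. The 3-unit letters were found in a window of 5 of the 9 genes (HSP90AA1, HSP90AB1, HSPA8, DNAJA1 and HSPD1), against 0.532% of 15221 genes coding for proteins, and in 5 of 15 windows against 0.49% of all 35116. A 2-unit match was present in 7 of the 9 genes, DNAJB1 and HSPB1 being added, against 14.9% of the genes coding for proteins. HSPH1 and HSPE1 had no match in these windows. The 250 bases before the start are shown for the 4 genes whose 3-unit letters precede the start, followed by HSPB1, the gene whose change differed in sign between the experiments. Each is read 5′ to 3′ on the strand of the gene and capitals mark the 3-unit match, or for HSPB1 the 2-unit match.
HSP90AA1, chr14:102087045-102087294, minus strand: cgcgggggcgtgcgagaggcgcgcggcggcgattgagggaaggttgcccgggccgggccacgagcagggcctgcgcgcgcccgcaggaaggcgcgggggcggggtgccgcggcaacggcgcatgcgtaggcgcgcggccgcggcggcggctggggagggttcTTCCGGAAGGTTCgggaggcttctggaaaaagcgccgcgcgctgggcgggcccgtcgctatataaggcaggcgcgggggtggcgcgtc
HSP90AB1, chr6:44247693-44247942, plus strand: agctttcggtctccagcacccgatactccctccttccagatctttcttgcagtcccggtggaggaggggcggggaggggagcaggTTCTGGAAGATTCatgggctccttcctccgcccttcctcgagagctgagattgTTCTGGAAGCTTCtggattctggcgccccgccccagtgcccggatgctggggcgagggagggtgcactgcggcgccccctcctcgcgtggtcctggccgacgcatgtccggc
HSPA8, chr11:123062137-123062386, minus strand: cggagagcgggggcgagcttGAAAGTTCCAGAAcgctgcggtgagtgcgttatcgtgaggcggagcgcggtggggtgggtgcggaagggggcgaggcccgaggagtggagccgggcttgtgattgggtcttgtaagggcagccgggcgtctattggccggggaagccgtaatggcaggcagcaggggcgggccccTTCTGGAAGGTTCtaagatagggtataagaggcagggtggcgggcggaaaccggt
HSPD1, chr2:197499841-197500090, minus strand: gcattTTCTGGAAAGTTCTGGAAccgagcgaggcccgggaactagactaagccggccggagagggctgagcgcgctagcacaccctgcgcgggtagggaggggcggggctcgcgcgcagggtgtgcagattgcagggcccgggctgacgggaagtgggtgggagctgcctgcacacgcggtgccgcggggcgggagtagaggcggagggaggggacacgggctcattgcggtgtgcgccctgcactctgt
HSPB1, chr7:76302423-76302672, plus strand: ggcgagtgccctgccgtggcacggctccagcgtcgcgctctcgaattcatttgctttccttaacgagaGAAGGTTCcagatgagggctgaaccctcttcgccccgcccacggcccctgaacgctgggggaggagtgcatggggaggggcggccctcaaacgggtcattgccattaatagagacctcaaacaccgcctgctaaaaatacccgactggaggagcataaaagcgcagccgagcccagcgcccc
The first base of the match lay 88 bases before the start in HSP90AA1, 165 and 112 in HSP90AB1, 230 and 55 in HSPA8 and 182 in HSPB1. In HSPD1, 2 overlapping matches, the nearer beginning 240 bases before the start, form 1 run of capitals. The HSP90AA1, HSP90AB1, HSPA8 and HSPD1 windows lie within the annotated span of their own gene, which has longer transcripts, and the HSPB1 window ends at the base before the gene. HSPD1 and HSPE1 lie head to head on chromosome 2, and the other listed HSPD1 start is 105 bases from that of HSPE1. The HSPD1 window shown ends at base 197500090 and the HSPE1 window begins at base 197500129, so the HSPD1 matches were not counted for HSPE1.

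Between 31056296 and 40071368 reads were counted per library. The treatments left their known marks: DUSP6, a target of MAPK signalling, was at 139.9, 139.1 and 131 CPM (normalised counts scaled to library size) with DMSO and at 0.0611 to 0.271 CPM with MAPKi, and TRIB3, a gene of the amino acid response, rose with a log2 fold change of 3.18 (SE 0.21, adjusted p = 0.000527, edgeR) upon Gln depletion. Both also moved in the other experiment. DUSP6 rose upon Gln depletion (log2 fold change 1.16, SE 0.26, adjusted p = 0.0203, edgeR), and TRIB3 fell with MAPKi (−1.13, SE 0.06, adjusted p = 2.57e-07). SOX10 was at 321 CPM or more in every library, MLANA and TYR at no more than 5.19 CPM, and no epithelial, leukocyte or endothelial marker exceeded 0.524 CPM. The summed level of the 8 melanocyte lineage markers was 9040 to 11000 CPM with MAPKi, 1550 to 1610 with DMSO, 1170 to 1470 in CTRL medium and 698 to 776 upon Gln depletion. DCT alone reached 8980 CPM, while no other of these markers passed 889 CPM in any library, and the part of this sum in the results below was not tested. In bulk RNA, fewer cells of a kind and less RNA per cell cannot be told apart.

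HSF1 could not be followed. The table holds its reads in 2 rows, and the row with the plain symbol had 198 reads in DMSO replicate 1 and 0 to 4 in each of the other 11 libraries. The second copy had 765 and 599 reads in CTRL replicates 1 and 2, 26 in CTRL replicate 3 and 16 to 57 in every other library. Neither row separated the groups in either experiment. HSF1 entered the MAPKi fit only through DMSO replicate 1 and was called lower there (log2 fold change −7.27, SE 2.52, adjusted p = 0.0253), and without that library it was not tested. It is left out of the statements on direction below. Of pseudogenes named after a member, the table holds DNAJA1P5, with 0 reads in every library.

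Treatment with MAPKi lowered 8 of the 9 remaining genes and raised 1. HSP90AB1, HSPD1 and HSP90AA1 fell by 2.77-fold, 2.52-fold and 2.51-fold, HSPE1 by 1.95-fold and HSPA8 by 1.73-fold, while HSPH1, DNAJB1 and DNAJA1 fell by 1.59-fold to 1.35-fold and HSPB1 rose 1.55-fold. The rule counted 10 tested members, 9 lower with HSF1, at an adjusted p of at most 0.05, whereas 38.8% of the 12597 genes tested were lower and 39.3% higher (78.1% in either direction), so that a call alone sets a gene little apart in this experiment. Past a 1.5-fold change, 5 members were lower (HSP90AA1, HSP90AB1, HSPA8, HSPD1 and HSPE1) and 0 higher, against 18.4% of all genes lower and 17.2% higher. The median log2 fold change of the 9 genes without HSF1 was −0.79 (that of HSPA8) against 0.01 for all genes tested. All MAPKi libraries lay below all DMSO libraries for 8 members, which held for 40.2% of all genes, and above them for HSPB1, which held for 40.8%.

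**Figure D1:**
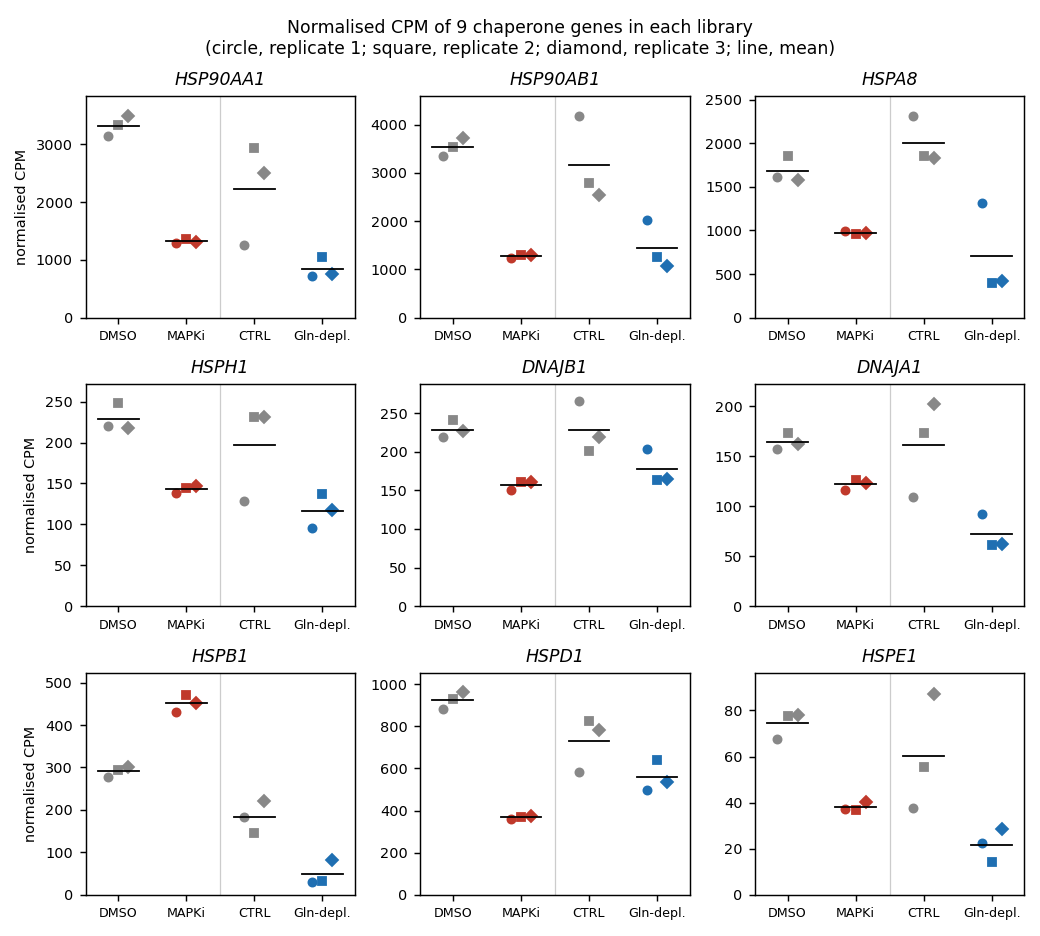
Normalised CPM (vertical axes, from 0) of 9 chaperone genes in the 3 DMSO, 3 MAPKi, 3 CTRL and 3 Gln-depleted libraries, with symbols for replicate numbers and a line at each group mean. MAPKi libraries lie close together and apart from DMSO for every gene, whereas CTRL and Gln-depleted libraries spread widely, as for HSPA8 with 1313, 398 and 423 CPM upon Gln depletion.

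The cytosolic HSP90 genes encode the stress-responsive isoform HSP90α and the constitutive isoform HSP90β. HSP90AA1 was at 3146, 3334 and 3487 CPM with DMSO and at 1294, 1355 and 1314 CPM with MAPKi. Its log2 fold change was −1.33 (SE 0.05, adjusted p = 1.54e-08, edgeR). HSP90AB1 went from 3355, 3544 and 3717 CPM to 1246, 1292 and 1299 CPM, a log2 fold change of −1.47 (SE 0.05, adjusted p = 9.02e-09). The MAPKi libraries lay between 1246 and 1355 CPM for these genes, and no DMSO library lay below 3146 CPM.

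HSPA8 encodes HSC70, the constitutive cytosolic HSP70. It was at 1618, 1859 and 1582 CPM with DMSO and at 996, 958 and 975 CPM with MAPKi (log2 fold change −0.79, SE 0.06, adjusted p = 2.69e-06). HSPH1, the HSP110 that exchanges nucleotides on HSP70, was at 220.3, 248 and 217 CPM with DMSO and at 139, 145 and 147 CPM with MAPKi (log2 fold change −0.67, SE 0.06, adjusted p = 5.53e-06). The groups did not overlap for either gene. DNAJB1, a J-domain partner of HSP70 that heat induces strongly, was at 219.5, 240.5 and 226.2 CPM with DMSO and at 150.5, 161 and 160.4 CPM with MAPKi (log2 fold change −0.54, SE 0.05, adjusted p = 8.71e-06). DNAJA1, a farnesylated J-domain protein of the cytosol, changed least of the genes that fell, from 157.5, 173 and 163 CPM to 117, 126 and 123 CPM (log2 fold change −0.43, SE 0.05, adjusted p = 4.2e-05). HSPH1, DNAJB1 and DNAJA1 did not pass 1.5-fold (adjusted p = 0.0749, 1 and 1).

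HSPD1 encodes the mitochondrial HSP60 and HSPE1 its lid HSP10. HSPD1 was at 882, 928 and 965 CPM with DMSO and at 359, 368 and 375.2 CPM with MAPKi (log2 fold change −1.33, SE 0.05, adjusted p = 1.61e-08). HSPE1 was at 67.5, 77.7 and 78 CPM with DMSO and at 37.4, 37 and 40 CPM with MAPKi (log2 fold change −0.96, SE 0.06, adjusted p = 8.51e-07). No MAPKi library reached a DMSO library for either gene. The read-through gene HSPE1-MOB4 overlaps HSPE1 in the annotation and had 0 reads in every library, and MOB4 had 0 to 3, so reads on shared exons may not have been counted and the level of HSPE1 is uncertain.

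HSPB1, the small heat shock protein HSP27, was the exception. It was at 278, 294 and 301 CPM with DMSO and at 429.9, 472 and 451 CPM with MAPKi, and every MAPKi library lay above every DMSO library. The log2 fold change was 0.63 (SE 0.05, adjusted p = 3.32e-06), which did not pass 1.5-fold (adjusted p = 0.178). With a correction for GC content the log2 fold change was 0.39 (adjusted p = 0.000206). The longest protein-coding transcript of HSPB1 has the highest GC fraction of those of the members (0.655). In a fit over all 12 libraries, in which the wider spread of the Gln depletion experiment enters, the calls of HSPB1, HSPA8 and DNAJA1 were lost (adjusted p = 0.113, 0.0909 and 0.108, the highest over all alternatives) with the log2 fold changes at 0.63, −0.79 and −0.43.

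**Figure D2:**
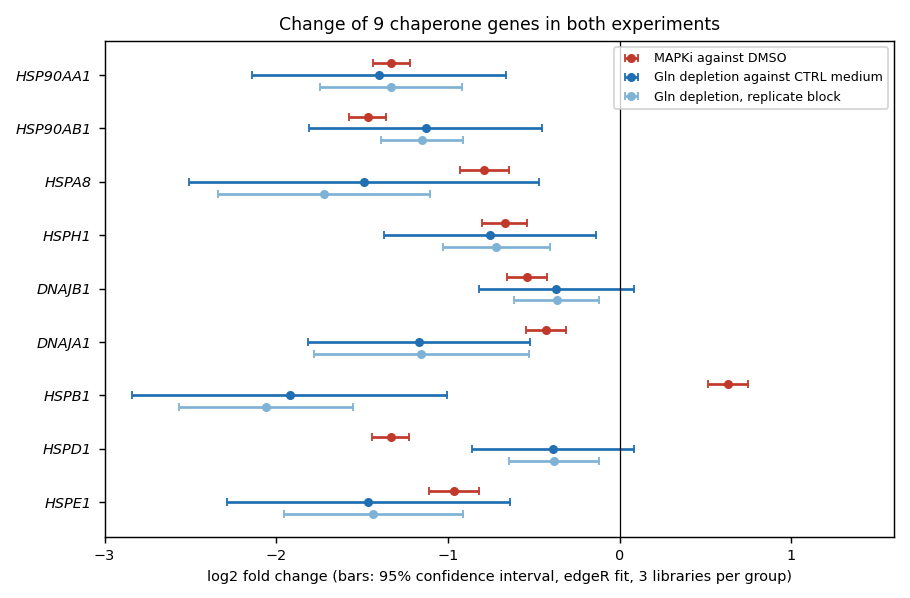
Log2 fold changes (horizontal axis) of 9 chaperone genes for MAPKi against DMSO, Gln depletion against CTRL medium, and Gln depletion with the replicate number as a block, with 95% confidence intervals from the edgeR fits of 3 libraries per group. HSPB1 is the gene with changes of opposite sign, 0.63 with MAPKi and −1.92 upon Gln depletion, and the intervals of Gln depletion narrow with the block.

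Gln depletion lowered 5 of the 9 members tested and raised 0, all 9 estimates lying below 0, against 8.33% of the 12515 genes tested lower and 9.44% higher (17.8% in either direction). HSPB1 fell 3.79-fold, HSPE1 2.76-fold, HSP90AA1 2.64-fold, DNAJA1 2.25-fold and HSP90AB1 2.19-fold. HSPB1 was also the 1 member past 1.5-fold (adjusted p = 0.0479, edgeR), against 2.1% of all genes lower and 3.48% higher. The median log2 fold change of the members was −1.17 against 0.00140 for all genes, and the Gln-depleted libraries lay below all CTRL libraries for 6 members, which held for 19.7% of all genes.

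Libraries with the same number shared deviations and an experimental batch, so the replicate number was also fitted as a block. With it, 9 of 9 members were lower, against 23.8% of all genes lower and 25.1% higher, and 5 were past 1.5-fold (HSP90AA1, HSP90AB1, HSPA8, HSPB1 and HSPE1), against 7.82%. Within experimental batch 2 alone, with 2 libraries per group, 7 of 9 were lower, against 17.1% of all genes, with 5 past 1.5-fold, against 5.15%, and DNAJB1 and HSPD1 were not called (adjusted p = 0.0847 and 0.0557). Experimental batch 1 has 1 library per group and gives ratios with no test.

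HSP90AA1 was at 1250, 2937 and 2507 CPM in CTRL medium and at 717, 1054 and 764 CPM upon Gln depletion. Its log2 fold change was −1.40 (SE 0.32, adjusted p = 0.0226) and, with the block, −1.33 (SE 0.18, adjusted p = 0.00106, with a range over all alternatives of 0.000639 to 0.093). HSP90AB1 went from 4183, 2780 and 2547 CPM to 2025, 1251 and 1066 CPM (log2 fold change −1.13, SE 0.30, adjusted p = 0.0347, and −1.15 with the block). Replicate 1 was the lowest library for HSP90AA1 in both groups and the highest for HSP90AB1 in both groups, yet the log2 ratios within a number were −0.80, −1.48 and −1.72 for HSP90AA1 and −1.05, −1.15 and −1.26 for HSP90AB1.

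HSPA8 was at 2306, 1854 and 1830 CPM in CTRL medium and at 1313, 398 and 423 CPM upon Gln depletion, so the groups did not overlap. It missed the threshold (log2 fold change −1.49, SE 0.45, adjusted p = 0.0525), and was called with the block (−1.72, SE 0.27, adjusted p = 0.00188) and in experimental batch 2 (−2.17, adjusted p = 0.0015), with a range over all alternatives of 0.00127 to 0.16. The log2 ratio was −0.81 in replicate 1 and −2.22 and −2.11 in replicates 2 and 3. DNAJA1 had the same arrangement, with 109, 173 and 202 CPM in CTRL medium, 92.6, 60.9 and 62.3 CPM upon Gln depletion and log2 ratios of −0.24, −1.51 and −1.70 (log2 fold change −1.17, SE 0.28, adjusted p = 0.0264).

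HSPH1 and DNAJB1 had overlapping groups. HSPH1 was at 129, 231 and 231 CPM in CTRL medium and at 95.6, 137 and 118 CPM upon Gln depletion (log2 fold change −0.75, SE 0.27, adjusted p = 0.0858, 0.00399 with the block, and 0.000657 to 0.233 over all alternatives). DNAJB1 was at 265, 202 and 219 CPM and at 204, 163 and 164 CPM (log2 fold change −0.37, SE 0.20, adjusted p = 0.219, 0.0234 with the block, and 0.0234 to 0.47 over all alternatives). Within a replicate number the Gln-depleted library was the lower one in 3 of 3 pairs for both genes.

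HSPD1 and HSPE1 differed upon Gln depletion in the size of their change. HSPD1 was at 583, 826 and 783 CPM in CTRL medium and at 496.5, 641 and 537 CPM upon Gln depletion, with overlapping groups (log2 fold change −0.39, SE 0.21, adjusted p = 0.216, 0.0256 with the block, and 0.0128 to 0.459 over all alternatives). HSPE1 was at 37.5, 55.5 and 87.3 CPM and at 22.6, 14.4 and 28.4 CPM (log2 fold change −1.46, SE 0.36, adjusted p = 0.0282). The difference between the genes was not tested.

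HSPB1 was at 183, 145.5 and 222 CPM in CTRL medium and at 29.8, 33.1 and 82.3 CPM upon Gln depletion. Replicate 3 was the highest library of both groups, and the log2 ratios were −2.62, −2.14 and −1.43. The log2 fold change was −1.92 (SE 0.40, adjusted p = 0.016) and, with the block, −2.06 (SE 0.22, adjusted p = 0.000458, with a range over all alternatives of 2.76e-05 to 0.0686). Leaving out single libraries ended calls in this experiment: 0 members were lower without Gln-depleted replicate 2 or without CTRL replicate 3, 1 without CTRL replicate 2 and 2 without Gln-depleted replicate 3. Of all genes, 2.15%, 3.72%, 3.21% and 4.66% were lower in these settings, in that order, against 8.33% with every library.

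**Figure D3:**
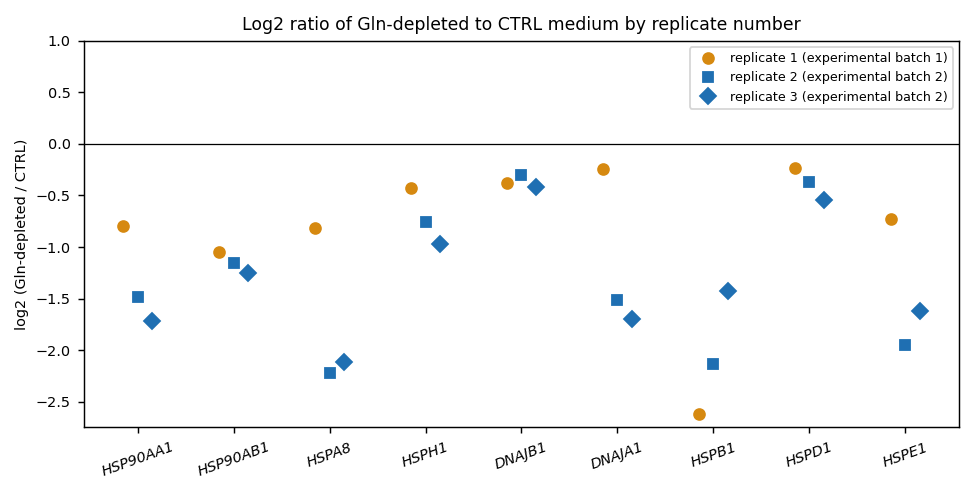
Log2 ratio of the Gln-depleted to the CTRL library with the same replicate number (vertical axis) for 9 chaperone genes, with replicate 1 from experimental batch 1 and replicates 2 and 3 from experimental batch 2. All 27 ratios lie below 0, from −0.23 to −2.62, and replicate 1 lies nearest to 0 for 7 of the 9 genes, between the others for DNAJB1 and farthest from 0 for HSPB1.

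The changes in the 2 experiments, which share no library, were compared directly. Of 10 members tested, 2 differed between the experiments, against 40.5% of the 12631 genes tested. HSPB1 changed by 2.60 log2 units more with MAPKi than upon Gln depletion (SE 0.45, adjusted p = 0.000734, edgeR), rising in one and falling in the other. HSPD1 changed by −0.90 (SE 0.20, adjusted p = 0.00366), that is, it fell further with MAPKi. For HSP90AA1, HSP90AB1, HSPH1 and DNAJB1 the difference lay between −0.29 and 0.12 with 95% confidence intervals reaching from −1.01 to 0.87 in the fit without the block. With the block, HSP90AB1 and HSPA8 differed as well (−0.27, adjusted p = 0.0224, and 0.98, adjusted p = 0.0311), making 4 members against 61% of all genes, and over all alternatives their adjusted p ranged from 0.0224 to 0.931 and from 6.22e-05 to 0.485. DNAJA1 was just above the threshold (difference 0.78, SE 0.30, adjusted p = 0.0531), and HSPA8 and HSPE1 gave 0.75 (SE 0.51) and 0.54 (SE 0.39) without the block.

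Levels were compared between genes other than HSF1 as CPM per kilobase of annotated exon. That length joins the exons of all annotated transcripts (8188 bases for DNAJB1, 2668 for DNAJA1), and the order of genes depends on it. In CPM not divided by length, DNAJB1 (mean 228.7 with DMSO) lay above DNAJA1 (164.3) and HSPE1 (74.4). HSP90AB1 was the highest in all 4 groups, at 1187 ± 60.8 with DMSO, 429 ± 9.66 with MAPKi, 1064 ± 297 in CTRL medium and 486 ± 171 upon Gln depletion (SD, n = 3). With DMSO it was followed by HSP90AA1 (652 ± 33.5), HSPA8 (348 ± 31.1), HSPB1 (179 ± 7.36) and HSPD1 (121 ± 5.45), whose libraries did not overlap with those of their neighbours, and DNAJB1 and HSPH1 were the lowest of these 9 genes and overlapped (27.9 ± 1.31 and 27.3 ± 2.04). With MAPKi HSPB1 came second at 278 ± 12.9, overlapping HSP90AA1 at 259 ± 6.10. Upon Gln depletion HSPB1 was the fifth at 29.8 ± 18.1, below HSPD1 at 73.2 ± 9.80, and its libraries (18.4, 20.4 and 50.7) overlapped those of DNAJA1 (34.7, 22.8 and 23.4), which it exceeded in replicate 3 alone.

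The other genes of the chaperone network were taken from a list of 79, of which 69 were tested in each experiment. With MAPKi, 41 were lower, 19 higher and 9 not called, with 23 lower and 4 higher past 1.5-fold and a median log2 fold change of −0.31. The shares of all genes tested were 38.8% lower and 39.3% higher, and 18.4% and 17.2% past 1.5-fold, and the counts by class are to be read against them. The chaperonin CCT and prefoldin, which fold actin and tubulin, had 11 of 12 tested genes lower and 0 higher, against 38.8% and 39.3% of all genes. CCT5 fell from 617.5, 669 and 671 CPM to 238, 246.4 and 246.3 CPM (log2 fold change −1.42, adjusted p = 1.24e-08), and CCT4 by 1.29 on the log2 scale. Among HSP90 co-chaperones, 8 of 10 were lower and 1 higher, with FKBP4, an immunophilin of steroid receptor complexes, at −1.87, PTGES3, the co-chaperone p23, at −1.37, and UNC45A, which assists myosin folding, at 0.49.

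Of 12 HSP70, HSP110 and exchange factor genes, 8 were lower and 2 higher with MAPKi, against 38.8% and 39.3% of all genes, with log2 fold changes of −1.36 for BAG3, an HSP70 exchange factor that heat shock induces, −1.22 for HSPA14, 1.58 for BAG1, another exchange factor, and 0.60 for HSPA2. HSF2, a second heat shock factor, fell from 19.4, 20 and 20.1 CPM to 10.1, 9.65 and 9.88 CPM (log2 fold change −1.01, adjusted p = 4.73e-07), and HSBP1, a negative regulator of HSF1, changed by −0.30. HSF4, the remaining gene of that class, was higher, at 2.54, 2.16 and 2.19 CPM with DMSO and 4.06, 3.32 and 3.11 CPM with MAPKi (log2 fold change 0.61, SE 0.16, adjusted p = 0.00668). The reads of the stress-inducible and near-identical HSPA1A and HSPA1B lie in 10 rows, which were summed as CPM of all reads. The sums were 3.61, 5.27 and 4.42 CPM with DMSO and 3.77, 5.28 and 4.81 CPM with MAPKi. They were 7.82, 3.77 and 3.02 CPM in CTRL medium and 3.16, 0.349 and 0.32 CPM upon Gln depletion. These low sums were not tested, and reads shared between the copies may not have been counted.

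Of 13 J-domain genes tested with MAPKi, 8 were higher and 4 lower, against 39.3% and 38.8% of all genes, with log2 fold changes of 1.51 for DNAJB2, 0.67 for DNAJB5, −0.88 for DNAJC8 and −0.86 for DNAJC2. CRYAB, the small heat shock protein αB-crystallin, rose from 2.64, 2.82 and 2.81 CPM to 17.1, 21.7 and 23 CPM (log2 fold change 2.90, SE 0.13, adjusted p = 5.5e-08), HSPB8 rose by 0.26 and HSPB11 fell by 0.55 on the log2 scale. Of the 4 tested genes listed in that class, 2 were higher and 2 lower. The other lower gene was HSPB6, near the floor at 0.748, 0.72 and 0.732 CPM with DMSO and 0.367, 0.508 and 0.403 CPM with MAPKi. Of 15 mitochondrial chaperones and proteases, 6 were lower and 5 higher, near the shares of all genes (38.8% and 39.3%). TRAP1, the mitochondrial HSP90, changed by −1.13, GRPEL2, an exchange factor of the mitochondrial HSP70, by −0.81, the protease subunit AFG3L2 by 0.49 and DNAJC15 by 0.33.

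**Figure D4:**
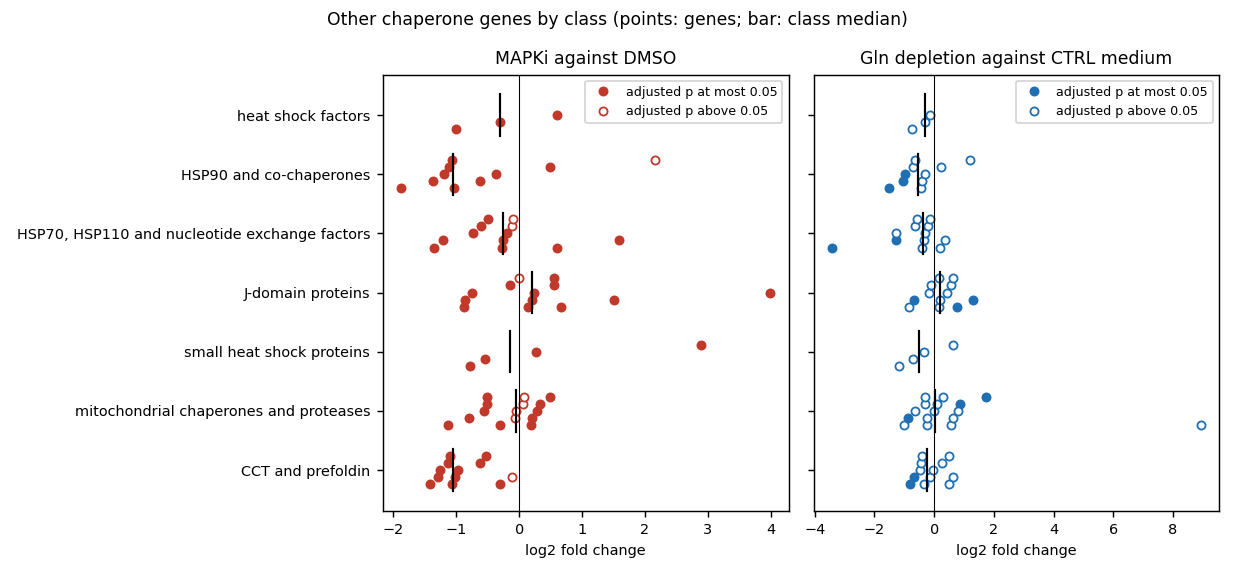
Log2 fold changes (horizontal axes) of the listed chaperone genes other than the 10 members, by class, for MAPKi against DMSO and Gln depletion against CTRL medium, with filled points for an adjusted p of at most 0.05 and a bar at the class median. The MAPKi points of the CCT and prefoldin class and of the HSP90 class lie mostly below 0 (medians −1.05 and −1.05), and the point near 9 upon Gln depletion is DNAJA3, with 916 reads in 1 library and 0 to 3 in the other 11, a second row of DNAJA3 holding 17 to 3039 reads per library.

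Upon Gln depletion, 9 of the 69 other genes were lower, 4 higher and 56 not called, against 8.33% of all genes lower and 9.44% higher, with a median log2 fold change of −0.23. With the block 28 were lower and 14 higher, against 23.8% and 25.1% of all genes. FKBP4 fell from 265, 194 and 218.5 CPM to 114, 55.6 and 67.6 CPM (log2 fold change −1.51, SE 0.29, adjusted p = 0.0124), and STIP1, which joins HSP70 to HSP90, changed by −1.06 (adjusted p = 0.0269). CCT3 and CCT5 changed by −0.82 and −0.68, 2 of 12 CCT and prefoldin genes being lower and 0 higher, and 6 lower and 2 higher with the block. HSPA2 fell from 39.9, 25 and 21.8 CPM to 5.01, 1.01 and 2.10 CPM (log2 fold change −3.42, adjusted p = 0.00682) and HSPA4L by 1.29 on the log2 scale. Of the J-domain genes DNAJB2 and DNAJB6 changed by 1.30 and 0.75 and DNAJC8 by −0.68.

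Of 16 mitochondrial chaperones and proteases tested upon Gln depletion, 1 was lower and 2 higher, against 8.33% and 9.44% of all genes. With the block 3 were lower and 6 higher, against 23.8% and 25.1% of all genes. GRPEL2 rose from 57.6, 106 and 104 CPM to 194, 364 and 328 CPM (log2 fold change 1.73, SE 0.32, adjusted p = 0.0108), and LONP1, the main protease of the matrix, from 268, 205.5 and 215 CPM to 516, 371 and 355 CPM (log2 fold change 0.85, SE 0.22, adjusted p = 0.0322). TRAP1 changed by −0.87 (adjusted p = 0.0366). The change of GRPEL2 differed between the experiments by −2.49 (SE 0.35, adjusted p = 0.000171), being −0.81 with MAPKi, and that of LONP1 by −1.33 (SE 0.22, adjusted p = 0.000593). CRYAB and HSPA2 also differed, by 4.14 and 4.06 (adjusted p = 2.12e-06 and 0.000196).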

How the data were processed

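RNA-seq counts were analysed for 12 libraries of A375 cells. The authors trimmed reads with fastp 0.20.1, aligned them with HISAT2 2.2.1 to GRCh38.p13 and deposited raw counts per gene from HTSeq 0.13.5 (htseq-count, exons, NCBI annotation). Every column of values was used. Further copies of a symbol (4858 rows) were kept apart. Whether reads were assigned by strand is not given in the sources used here.

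Symbols were matched to RefSeq (36524 genes by symbol, 527 by synonym, 2750 not matched), and exon lengths came from GENCODE v44. Each experiment was fitted alone in R 4.3.3 by the quasi-likelihood F-test of edgeR 4.0.16 against no change, after TMM scaling and with Benjamini-Hochberg adjustment over all tested genes. Genes coding for proteins entered a fit when their normalized count averaged 10 or more. Calls past 1.5-fold used edgeR's test against that fold. The difference between the experiments was a contrast over 12 libraries. CPM are relative to TMM-scaled sizes of the tested genes (factors 0.935 to 1.07), and SE and 95% intervals come from the fit. Replicates of every group differed by more than counting noise.

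Same-numbered libraries had correlated deviations from their group means in the Gln depletion experiment (r = 0.573, 0.426 and 0.378), where the labels also give shared experimental batches, so the blocked fit is given beside its results. Duplicate libraries were looked for by a chi-square test of counts between replicates, which found none (4.18 to 200 per degree of freedom). Alternatives were DESeq2 1.42.0 and its size factors, other count limits, all genes of the table, one fit of 12 libraries, the block, a correction for GC content, single libraries left out and, chosen after seeing the data, experimental batch 2 alone and the members without HSF1. The fits were tested on simulated counts, in which 200 genes had known fold changes. The simulated libraries held no shared replicate or batch deviations, so they cannot judge the choice between fits with and without the block. Tables and figures were made with pandas 2.3.3 and matplotlib 3.10.9.

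The 10 members and the list of 79 further chaperone genes were chosen with earlier results of these data known. All members are named. From the list, up to 2 genes per class, experiment and direction were named, those with the largest log2 fold change among genes with an adjusted p of at most 0.05 and a normalized count averaging 100 or more. DNAJA3, HSF4, HSPB6, the differences between the experiments given for 4 genes of the list, and the summed HSPA1A and HSPA1B rows were singled out after their values were seen. DUSP6 and TRIB3 served as treatment checks, with SPRY4 (log2 fold change −7.46 with MAPKi and 0.87 upon Gln depletion) and CHAC1 (3.32 upon Gln depletion and −2.93 with MAPKi). SESN2, a further planned check, had almost no reads in any library, was not tested and has no fold change.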

Additional observations from a re-analysis of the deposited data

How the results depend on the processing

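With MAPKi, the 9 members other than HSF1 kept their direction under every alternative run, and the fit of all 12 libraries left 0 members higher and 39 further chaperone genes called, against 60 in the fit of that experiment alone. Among all genes, 25.5% were lower and 24.1% higher in the fit of all 12 libraries, against 38.8% and 39.3%. DESeq2 gave no adjusted p for HSF1. The MAPKi and DMSO libraries share only a number (r = 0.0649, 0.0641 and 0.0636, each library correlating best with its own number), and the replicate block moved the members past 1.5-fold from 5 to 7 there, adding HSPH1 (adjusted p = 0.0401) and HSF1, which rests on 1 library. Of all genes, 18.8% were lower and 17.8% higher past 1.5-fold with that block, against 18.4% and 17.2% without it. The GC-content correction lowered the log2 fold change of HSPB1 with MAPKi from 0.63 to 0.39, which was still called against no change (adjusted p = 0.000206, edgeR). Upon Gln depletion the log2 fold changes of the members other than HSF1 also stayed below 0 under every alternative run, but the counts of calls moved. With the replicate block, 9 members were lower, 5 past 1.5-fold and 42 further genes called, against 13 without it. With the block and the GC-content correction these were 8, 7 and 39, with the GC-content correction alone 2 were past 1.5-fold and 26 further genes called, and in the fit of all 12 libraries the counts were 9, 6 and 33. Experimental batch 2 alone gave 5 past 1.5-fold and 28 further genes, DESeq2 called 21 further genes, and a mean normalized count of at least 100 left 0 members past 1.5-fold. Of all genes, 7.82% were lower and 8.84% higher past 1.5-fold with the block, and 5.15% and 5.83% in experimental batch 2 alone. For the other alternatives of that experiment, the share of all genes past 1.5-fold was not computed. Calls over all genes moved as well. They were 8.33% lower and 9.44% higher without the block, and 23.8% and 25.1% with it. With the block and the GC-content correction they were 25.4% and 23.9%, and with that correction alone 16.1% and 15.6%. The fit of all 12 libraries gave 22.5% and 18.7%, experimental batch 2 alone 17.1% and 17.9%, and DESeq2 12.8% and 13.9%. Leaving out 1 library gave 0 to 6 members changed, 0 to 6 lower, 0 to 3 past 1.5-fold and 4 to 19 further genes called. Of all genes, 2.15% to 11.3% were then lower and 3.81% to 10.6% higher. The number of members that differ between the experiments was 2 without the block and 4 with it, against 40.5% and 61% of all genes. It was 4 with the GC-content correction, 7 with both and 2 to 4 when 1 library was left out. The share of all genes was not computed for these last settings, so their counts cannot be set against it. The difference changed sign for HSP90AB1 without Gln-depleted replicate 1 (0.030, range over single libraries left out −0.56 to 0.030), for HSPH1 without Gln-depleted replicate 1, CTRL replicate 2 or CTRL replicate 3 (−0.0030, −0.013 and −0.011, range −0.013 to 0.35) and for HSP90AA1 without CTRL replicate 2 (−0.15, range −0.15 to 0.39), where none of these was called. The cause of these shifts was not tested. Between replicates, the chi-square of counts per degree of freedom was 40.2 to 200 in the CTRL and Gln-depleted groups. It was 4.18 to 15.4 in the MAPKi and DMSO groups, and the part of depth was not tested.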
